A study of Arabidopsis thaliana with 8 samples.

Results

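The direct comparison of *fip37L* with *cpsf30-1* rests on 4 libraries of the 8 in the series, 2 of each mutant, and was read as the number of RNA-seq reads in the 500-bp window that follows the annotated 3′ end of every *Arabidopsis thaliana* gene. Of 31109 genes with 1 window each, 12583 windows held enough reads to be tested. Among these, 969 windows were higher in *fip37L*, 1278 were higher in *cpsf30-1* and 10336 were not called. All 3 numbers come from the contrast of the mutants with each other, and WT libraries served as the outside level.

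All libraries came from 9-day-old Col-0 seedlings. The *fip37L* line carries the *fip37-4* mutation and a FIP37 transgene under the *LEC1* promoter, which is active in embryos, so that FIP37 is lost after embryogenesis. The *cpsf30-1* line lacks both isoforms of CPSF30 in all tissues and at all stages. The remaining 4 libraries were 2 of wild type (WT) and 2 of *cpsf30-3*, which lacks only the long CPSF30 isoform. The labels give 2 replicates per line and do not say whether these were separate cultures, so p-values measure the spread between these samples, which may be technical. The methods give a medium with sucrose for *fip37-4* plants and do not give the medium of the other lines in these libraries, so that medium and genotype cannot be told apart. Since reads of whole seedlings were counted, fewer cells of a type and less RNA per cell cannot be told apart either.

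In the cleavage and polyadenylation reaction, a protein complex recognises signals in the nascent RNA, cuts it and allows the poly(A) tail to be added. CPSF30 is a subunit of the factor that reads the AAUAAA-type signal, and its long isoform carries a YTH domain that binds N6-methyladenosine (m6A). FIP37, the plant counterpart of the human protein WTAP, belongs to the complex that writes m6A onto mRNA. Transcripts that are not cut at the usual site continue past it, and their reads then fall in the downstream window. Reads of a neighbouring gene fall in the same window where the genes lie close together.

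The window totals ran from 4385181 to 6039296 reads in *fip37L* libraries and from 4138533 to 4887322 reads in *cpsf30-1* libraries, against 4777989 and 5173604 reads in WT libraries. The spread between replicates, as the biological coefficient of variation fitted to each group alone, was 21.5% in *fip37L*, 8.71% in *cpsf30-1* and 6.42% in WT. Values are given below as reads per library or as CPM (read counts scaled to a common window total after TMM normalisation), and the log2 difference is always *fip37L* minus *cpsf30-1*. At 25 pairs of windows that lie on opposite strands and share at least 485 bases, 11 pairs had totals within 10% of each other, 3 had equal totals and the smaller total was a median 79.6% of the larger. Of 6 such pairs on the same strand, 5 were within 10%, with a median of 99%. Whether reads were counted by strand is not settled by this, and a window that faces a gene on the opposite strand may also hold reads of that gene.

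The bases just before the windows are shown for some of the windows with large differences in either direction, since this is where the polyadenylation signals of the gene would lie. They were picked from a larger set of named windows whose stretches were read. Each stretch has 30 bases, written 5′ to 3′ on the strand of the gene from the RefSeq TAIR10.1 assembly, with AATAAA and TGTA in capitals. TGTA (UGUA in the RNA) is the other element searched for. The first 4 stretches precede windows that were higher in *cpsf30-1*, and the last 3 precede windows that were higher in *fip37L*. Only the stretch of *UGT74E2*, placed 11 bases before the annotated end, contains AATAAA, and all other stretches end at the annotated 3′ end. *UGT74E2* was also the only gene of the larger set with AATAAA in its last 50 bases. The stretches shown therefore do not give the frequency of AATAAA, which was present before 8.43% of all placed windows higher in *fip37L*.
GRP23, chr2:13863635-13863664, minus strand: gatcttacaacacttgctaaaatgaattcg
LHCA2, chr3:22747415-22747444, plus strand: atttaaatattgaaaatcaactgaaaattt
ELP, chr1:4089664-4089693, minus strand: ttttaaccagtTGTAttaatcatccaaaaa
AT5G01710, chr5:263511-263540, minus strand: aaatttgagtttcttttacgctcgcaactg
NSP3, chr3:5564543-5564572, plus strand: tggcttgttcaataagatgtttattttccg
AT4G13575, chr4:7892320-7892349, minus strand: taatcaatatataaaaagtcaatacatatc
UGT74E2, chr1:1703013-1703042, minus strand: aatccagggtttAATAAAatatccaagccg

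Differences ran in both directions and were larger among the windows that were higher in *cpsf30-1*. A window was called when edgeR's quasi-likelihood test gave p under 0.05 after Benjamini-Hochberg adjustment and the fold was 2 or more. By this call, 7.70% of the tested windows were higher in *fip37L* and 10.2% were higher in *cpsf30-1*, which makes 17.9% called in either direction. The median log2 difference was 1.46 in the windows higher in *fip37L* and −1.83 in those higher in *cpsf30-1*, against 0.01 over all tested windows. The median count of the higher mutant was 67 in windows higher in *fip37L* and 33 in those higher in *cpsf30-1*. Whether these counts account for the larger differences was not tested. For 5813 windows, 46.2% of those tested, the 95% interval of the difference lay within 2-fold, and for 4523 windows the data neither passed the call nor bounded the difference within 2-fold. Scaling by library size alone shifted the differences by a median of −0.128 and gave 735 windows higher in *fip37L* and 1514 higher in *cpsf30-1*. Without replicate 1 or replicate 2 of *cpsf30-1*, 617 or 616 windows were higher in *fip37L*, and without replicate 1 of *cpsf30-1*, 818 were higher in *cpsf30-1*. Among windows with a mean of at least 20 reads in WT, a filter chosen after seeing the data, more were higher in *fip37L* (636) than in *cpsf30-1* (450).

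The 2 *fip37L* libraries were less alike than the 2 *cpsf30-1* libraries. Among the windows higher in *fip37L*, replicate 1 was at least 2-fold above replicate 2 in 114, or 11.8%, against 4.85% of all tested windows. Among the windows higher in *cpsf30-1*, replicate 1 of *cpsf30-1* was at least 2-fold above replicate 2 in 1.64%, against 1.37% of all tested windows. Without replicate 1 of *fip37L*, 998 windows were higher in *fip37L*, of which 714 were shared with the 969 windows called with all libraries.

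**Figure D1:**
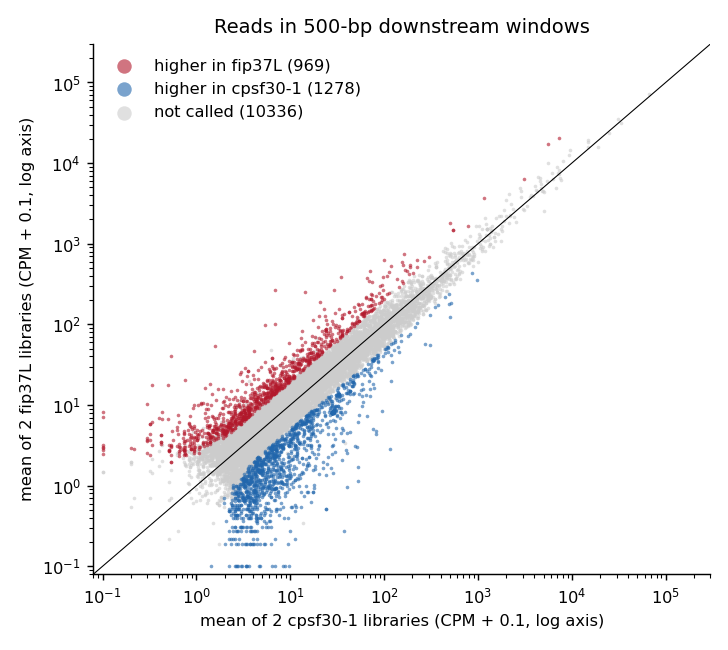
Mean CPM of the 2 *fip37L* libraries (vertical log axis) against the mean of the 2 *cpsf30-1* libraries (horizontal log axis), each with 0.1 added, for the 12583 tested windows. Red points are the 969 windows higher in *fip37L*, blue points the 1278 windows higher in *cpsf30-1*, and the line marks equal values.

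The genes of the mutated factors were read first. The window of *FIP37* held 149 and 105 reads in *fip37L* libraries and 39 and 44 reads in *cpsf30-1* libraries, against 56 and 37 reads in WT libraries. It was higher in *fip37L*, where both libraries lay above all others, with a log2 difference of 1.53 ± 0.20 (SE, edgeR adjusted p = 0.00075). This window lies outside the *FIP37* gene and overlaps AT3G54180, so it does not check the loss of FIP37. *CPSF30* gives 2 windows. That of the first transcript model held 3 and 0 reads in *fip37L* libraries and 2 and 4 reads in *cpsf30-1* libraries, which was too few to test. That of the second model (chr1:10770686-10771185) lies mostly within the span of the first model, which ends at 10770813, so it may hold reads of *CPSF30* itself. It held 19 and 14 reads in WT libraries and 4 and 2 reads in *cpsf30-3* libraries. In *fip37L* libraries this window held 16 and 17 reads, against 0 and 0 reads in *cpsf30-1* libraries. At a floor of 3 counts per library, this is at least 5.31-fold higher in *fip37L*, and the *cpsf30-1* labels go with an absence of reads there.

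Where no other gene was annotated in the window, calls in favour of *cpsf30-1* were frequent. Of 1633 tested windows free of other genes on either strand, 137 (8.39%) were higher in *fip37L* and 446 (27.3%) were higher in *cpsf30-1*. Windows that overlap a gene on the same strand only gave 207 of 3334 (6.21%) higher in *fip37L* and 334 (10%) higher in *cpsf30-1*. Windows that overlap opposite-strand genes only gave 532 of 6831 (7.79%) higher in *fip37L* and 442 (6.47%) higher in *cpsf30-1*, and those with genes on both strands gave 85 of 683 (12.4%) and 49 (7.17%). The median log2 difference was −0.35 over free windows, against 0.06 over windows with opposite-strand genes only. No test was run between the classes.

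The size of this imbalance depended on the fit and on the windows admitted. When free windows were fitted separately, with their own filter, scaling and adjustment of p, the differences moved up by a median of 0.40, and 219 of 1648 windows (13.3%) were higher in *fip37L* against 291 (17.7%) higher in *cpsf30-1*. The share of calls on free windows that were higher in *fip37L* was 42.9% in that fit and 23.5% in the fit of all windows. Free windows held 7.52% and 8.21% of the window reads in *fip37L* libraries and 6.05% and 5.68% in *cpsf30-1* libraries, against 6.43% and 6.52% in WT libraries. Among the 590 free windows with a mean of at least 20 reads in WT, which uses neither mutant, 56 (9.49%) were higher in *fip37L* and 94 (15.9%) were higher in *cpsf30-1*. The same filter gave 122 (5.5%) and 116 (5.23%) of 2220 windows with same-strand genes only, and 381 (6.82%) and 213 (3.81%) of 5586 where the window holds opposite-strand genes alone. In the 9030 windows that pass the filter, 636 (7.04%) were higher in *fip37L* and 450 (4.98%) in *cpsf30-1*, so that the direction with more calls turned. Counted over all 14024 free windows, tested or not, the shares were 0.977% and 3.18%.

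**Figure D2:**
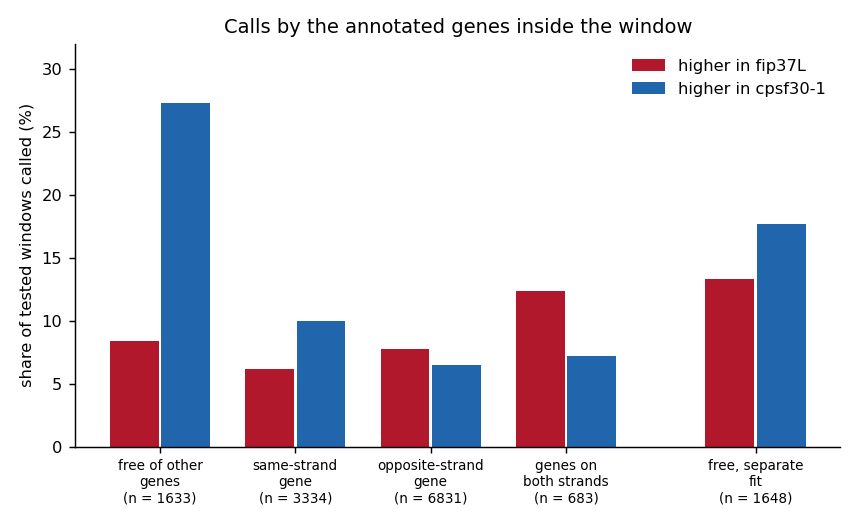
Share of tested windows called higher in *fip37L* (red) or in *cpsf30-1* (blue), in percent, by the annotated genes that lie in the window. The pair at the right is from a separate fit of free windows alone, with 1648 tested, where the shares were 13.3% and 17.7%.

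Set against WT, the windows higher in *cpsf30-1* mostly had *fip37L* near WT. The mean CPM of WT lay closer to *fip37L* than to *cpsf30-1* in 1002 of these 1278 windows (78.4%), on the scale log2(CPM + 1), and below both mutants in 463. Their median log2 difference from WT was −0.29 in *fip37L* and 1.75 in *cpsf30-1*. Among the 446 free windows the WT mean was closer to *fip37L* in 399 (89.5%), and the median differences from WT were −0.16 in *fip37L* and 2.11 in *cpsf30-1*. The median CPM of these free windows was 1.16 in *fip37L* and 1.38 in WT, against 5.85 in *cpsf30-1*, and 94 of them had a WT mean of at least 20 reads. Low values lie close together on this scale, so the choice of windows high in *cpsf30-1* itself favours a WT mean closer to *fip37L*. With same-strand genes only, it was closer to *fip37L* in 277 of 334 (82.9%). With opposite-strand genes only, this held in 284 of 442 (64.3%), and the median differences from WT were −0.54 in *fip37L* and 1.285 in *cpsf30-1*. The 2 contrasts share the WT libraries and are given side by side only. The *cpsf30-3* libraries, which entered the contrast of the mutants only through the shared estimate of the spread, had a median difference from WT of 0.34 over the 1278 windows and 0.46 over the 446.

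Among the windows higher in *fip37L*, WT was closer to *cpsf30-1* in 615 of the 969 (63.5%) and closer to *fip37L* in 354. The median log2 difference from WT was 0.91 in *fip37L*, −0.54 in *cpsf30-1* and −0.01 in *cpsf30-3*. Both WT libraries lay strictly between the libraries of the mutants in 425 of the 969 windows higher in *fip37L* and in 335 of the 1278 higher in *cpsf30-1*. Both *cpsf30-3* libraries did so in 425 and 543 of these windows. The windows were chosen for a gap between the mutants, which leaves room for a further group, and the share over all tested windows was not computed. Over all 12583 tested windows the median difference from WT was 0.03 in *fip37L* and −0.03 in *cpsf30-1*.

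**Figure D3:**
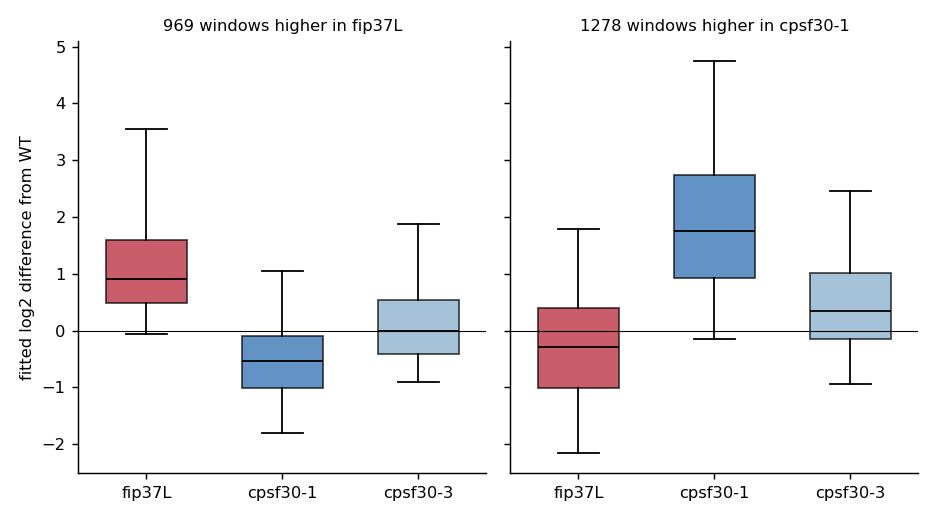
Fitted log2 difference from WT in *fip37L*, *cpsf30-1* and *cpsf30-3* for the 969 windows higher in *fip37L* (left) and the 1278 windows higher in *cpsf30-1* (right). Boxes span the interquartile range of the windows with the median as a line, whiskers reach the 5th and 95th percentiles, and the 3 differences share the WT libraries. In the right panel the median was −0.29 in *fip37L*, 1.75 in *cpsf30-1* and 0.34 in *cpsf30-3*.

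A set of 5 free windows headed the list in favour of *cpsf30-1*, chosen by the ratio of mean CPM + 1. *GRP23* encodes a glycine-rich protein, and its window (chr2:13863135-13863634) held 13 and 13 reads in *fip37L* libraries and 515 and 562 reads in *cpsf30-1* libraries, against 8 and 10 reads in WT libraries. The *fip37L* libraries were close to WT and far below *cpsf30-1*, with 2.71 ± 0.59 CPM in *fip37L* and 116 ± 6.49 CPM in *cpsf30-1* (SD, n = 2 each) and a log2 difference of −5.44 ± 0.20 (SE, edgeR adjusted p = 2.8e-06). *MT2A*, a metal-binding metallothionein gene, had 7 and 2 reads in *fip37L* libraries and 151 and 224 reads in *cpsf30-1* libraries, against 2 and 10 reads in WT libraries. *ELP*, which encodes an extensin-like protein, had 10 and 6 reads in *fip37L* libraries and 206 and 285 reads in *cpsf30-1* libraries, against 10 and 12 reads in WT libraries. In both windows the groups of the mutants were far apart, with log2 differences of −5.42 ± 0.46 for *MT2A* and −4.99 ± 0.27 for *ELP*, and the value for *MT2A* was −6.29 without replicate 1 of *fip37L*.

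The others of the 5 belong to nuclear genes for chloroplast proteins. *LHCA2* encodes a chlorophyll-binding antenna protein of photosystem I, and its window (chr3:22747445-22747944) held 17 and 12 reads in *fip37L* libraries and 239 and 238 reads in *cpsf30-1* libraries, against 15 and 17 reads in WT libraries. *HCF244*, needed for translation of a photosystem II core protein, had 14 and 15 reads in *fip37L* libraries and 219 and 234 reads in *cpsf30-1* libraries, against 8 and 3 reads in WT libraries. The log2 differences were −4.12 ± 0.22 for *LHCA2* and −4.03 ± 0.28 for *HCF244* (edgeR adjusted p = 2.4e-05 and 3.5e-05). All 5 windows were also above WT in *cpsf30-3*, for example with 46 and 48 reads for *LHCA2* and 38 and 26 reads for *GRP23*.

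Windows that run into a gene on the same strand are those in which a chimeric transcript could form. By the ratio of mean CPM + 1, the first in favour of *cpsf30-1* was AT5G01710, a putative methyltransferase gene followed by the phosphatase gene AT5G01700. Its window (chr5:263011-263510) held 2 and 2 reads in *fip37L* libraries and 100 and 124 reads in *cpsf30-1* libraries, against 2 and 4 reads in WT libraries, with a log2 difference of −5.80 ± 0.33 (edgeR adjusted p = 2.4e-05). AT3G21670, a transporter gene upstream of AT3G21660, had 3 and 9 reads in *fip37L* libraries and 131 and 131 reads in *cpsf30-1* libraries, against 17 and 13 reads in WT libraries. The 2 *fip37L* libraries were below both WT libraries, and the log2 difference of −4.49 ± 0.38 was −3.68 without replicate 1 and −5.66 without replicate 2 of *fip37L*.

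The same class holds 3 more windows named by the same rule. AT5G18633 had 18 and 7 reads in *fip37L* libraries and 164 and 213 reads in *cpsf30-1* libraries, against 4 and 5 reads in WT libraries. *ATG8F*, an autophagy gene, had 0 and 1 reads in *fip37L* libraries and 42 and 63 reads in *cpsf30-1* libraries, against 3 and 4 reads in WT libraries, which is a ratio of 111 with a 95% counting interval from 19.5 to 4427, and its log2 difference of −6.46 was −5.39 without replicate 1 and −8.79 without replicate 2 of *fip37L*. *SCPL11*, a carboxypeptidase-like gene, had 41 and 9 reads in *fip37L* libraries and 659 and 42 reads in *cpsf30-1* libraries, against 20 and 20 reads in WT libraries. With limma voom and quality weights by group, its log2 difference was −2.90 and the call was lost (limma voom adjusted p = 0.42). With edgeR the log2 difference of −4.02 was −5.19 without replicate 1 of *fip37L* and −4.96 without replicate 2 of *cpsf30-1*. Without replicate 1 of *cpsf30-1* it was −0.76 (edgeR adjusted p = 0.35), and the call was also lost without replicate 2 of *fip37L* (adjusted p = 0.053).

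At the same end, 3 windows face an opposite-strand gene. *FAD5*, a plastid fatty acid desaturase gene, had 2 and 0 reads in *fip37L* libraries and 143 and 210 reads in *cpsf30-1* libraries, against 2 and 1 reads in WT libraries, which makes a ratio of 187 (95% counting interval from 51.3 to 1547). Its log2 difference of −7.37 was −10.47 without replicate 1 and −6.63 without replicate 2 of *fip37L*. AT4G17565 had 9 and 2 reads in *fip37L* libraries and 213 and 279 reads in *cpsf30-1* libraries, against 9 and 6 reads in WT libraries. *GASA6*, a gibberellin-regulated gene, had 39 and 13 reads in *fip37L* libraries and 327 and 372 reads in *cpsf30-1* libraries, against 53 and 56 reads in WT libraries. In all 3 windows the *cpsf30-1* libraries lay above every *fip37L* and WT library. Without replicate 1 of *fip37L* the log2 difference was −4.57 for *GASA6*, where it was −3.85 with all libraries, and −6.69 for AT4G17565, where it was −5.54.

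In favour of *fip37L*, the free windows were of several kinds. AT4G13575, an uncharacterised gene, had 689 and 335 reads in *fip37L* libraries and 32 and 30 reads in *cpsf30-1* libraries, against 254 and 244 reads in WT libraries. With a log2 difference of 3.92 ± 0.23 (edgeR adjusted p = 2.4e-05), WT lay between the mutants, and the difference from WT was 1.05 in *fip37L* and −2.86 in *cpsf30-1*. *NSP3*, which directs glucosinolate breakdown to nitriles, had 99 and 73 reads in *fip37L* libraries and 2 and 0 reads in *cpsf30-1* libraries, against 19 and 5 reads in WT libraries. This is a ratio of 81.3 with a 95% counting interval from 22.2 to 677, and the *cpsf30-3* libraries held 0 and 0 reads there. Its log2 difference of 6.18 was 9.44 without replicate 1 and 5.15 without replicate 2 of *cpsf30-1*. AT5G53230 had 31 and 35 reads in *fip37L* libraries and 0 and 0 reads in *cpsf30-1* libraries, at least 10.7-fold higher in *fip37L* at the floor of 3 counts per library.

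The 2 remaining free windows of this rank differed strongly between the *fip37L* replicates. AT5G45630, annotated as a senescence regulator family gene, had 404 and 35 reads in *fip37L* libraries and 2 and 2 reads in *cpsf30-1* libraries, against 0 and 0 reads in WT libraries. Its log2 difference of 6.47 was 4.22 without replicate 1 and 7.30 without replicate 2 of *fip37L*. With limma voom and quality weights by group it was 5.70, and the call was narrowly lost (limma voom adjusted p = 0.0505). *TDR1*, an ERF transcription factor gene, had 84 and 5 reads in *fip37L* libraries and 0 and 0 reads in *cpsf30-1* and WT libraries, at least 12.3-fold higher in *fip37L*. Its call (edgeR adjusted p = 0.024) was lost without replicate 1 of *fip37L* (adjusted p = 0.089) and without either replicate of *cpsf30-1* (adjusted p = 0.089 and 0.097).

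Among windows that overlap a same-strand gene, *SDH1-2*, a gene for a succinate dehydrogenase subunit, was among the first in favour of *fip37L*. Its window (chr2:7996844-7997343) overlaps the noncoding RNA gene *GUT15* and held 1352 and 1109 reads in *fip37L* libraries and 40 and 96 reads in *cpsf30-1* libraries, against 685 and 617 reads in WT libraries. The log2 difference was 4.13 ± 0.27 (edgeR adjusted p = 3.2e-05), or 4.75 without replicate 2 of *cpsf30-1*, and *cpsf30-1* stood further from WT (−3.14) than *fip37L* did (0.98). AT1G15930, a ribosomal protein gene upstream of AT1G15940, had 100 and 95 reads in *fip37L* libraries and 3 and 3 reads in *cpsf30-1* libraries, against 1 and 2 reads in WT libraries. Here *cpsf30-1* was close to WT, and the log2 difference between the mutants was 4.91 ± 0.47 (edgeR adjusted p = 0.00014).

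Of the remaining windows of this class, *COR413-PM2*, a cold-regulated membrane protein gene, had 95 and 60 reads in *fip37L* libraries and 7 and 8 reads in *cpsf30-1* libraries, against 48 and 45 reads in WT libraries. *COX15*, a gene for cytochrome c oxidase assembly, had 879 and 287 reads in *fip37L* libraries and 67 and 95 reads in *cpsf30-1* libraries, against 155 and 138 reads in WT libraries, and its log2 difference of 2.70 was 2.0 without replicate 1 of *fip37L*. *UGT74E2*, a glycosyltransferase gene, had 122 and 24 reads in *fip37L* libraries and 4 and 9 reads in *cpsf30-1* libraries, against 2 and 6 reads in WT libraries. Its log2 difference was 3.31 with all libraries, 2.04 without replicate 1 and 3.94 without replicate 2 of *fip37L*, and the call was lost without replicate 1 of *cpsf30-1* (edgeR adjusted p = 0.070).

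The windows with opposite-strand genes and the largest differences in favour of *fip37L* were those of AT1G60200, *3xHMG-box2* and AT2G39040, and in all 3 replicate 1 of *fip37L* was far above replicate 2. AT1G60200 faces *PUB19*, a U-box ubiquitin ligase gene, and had 2577 and 324 reads in *fip37L* libraries and 26 and 38 reads in *cpsf30-1* libraries, against 48 and 49 reads in WT libraries. *3xHMG-box2* faces *WRKY53*, a transcription factor gene of leaf senescence, and had 903 and 160 reads in *fip37L* libraries and 25 and 24 reads in *cpsf30-1* libraries, against 31 and 30 reads in WT libraries. The *cpsf30-3* libraries were also above WT in both windows, with 173 and 272 reads for AT1G60200 and 219 and 372 reads for *3xHMG-box2*. AT2G39040, a peroxidase family gene, faces *NATA1*, an ornithine acetyltransferase gene, and had 576 and 29 reads in *fip37L* libraries and 4 and 10 reads in *cpsf30-1* libraries and 7 and 51 reads in *cpsf30-3* libraries, against 2 and 8 reads in WT libraries. With limma voom and quality weights by group, its log2 difference was 4.36 and the call was lost (limma voom adjusted p = 0.099).

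Without replicate 1 of *fip37L* the edgeR log2 differences of these windows were smaller. That of AT1G60200 was 3.51 in place of 5.28 and that of *3xHMG-box2* was 2.87 in place of 4.23, both still called. They were 6.06 and 4.92 without replicate 2 of *fip37L*. For AT2G39040 the difference of 5.18 became 2.21 and lost its call (edgeR adjusted p = 0.12). It was 6.07 without replicate 2 of *fip37L*, and the call was lost as well without replicate 1 or replicate 2 of *cpsf30-1* (4.79 and 5.84, adjusted p = 0.097 and 0.081).

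**Figure D4:**
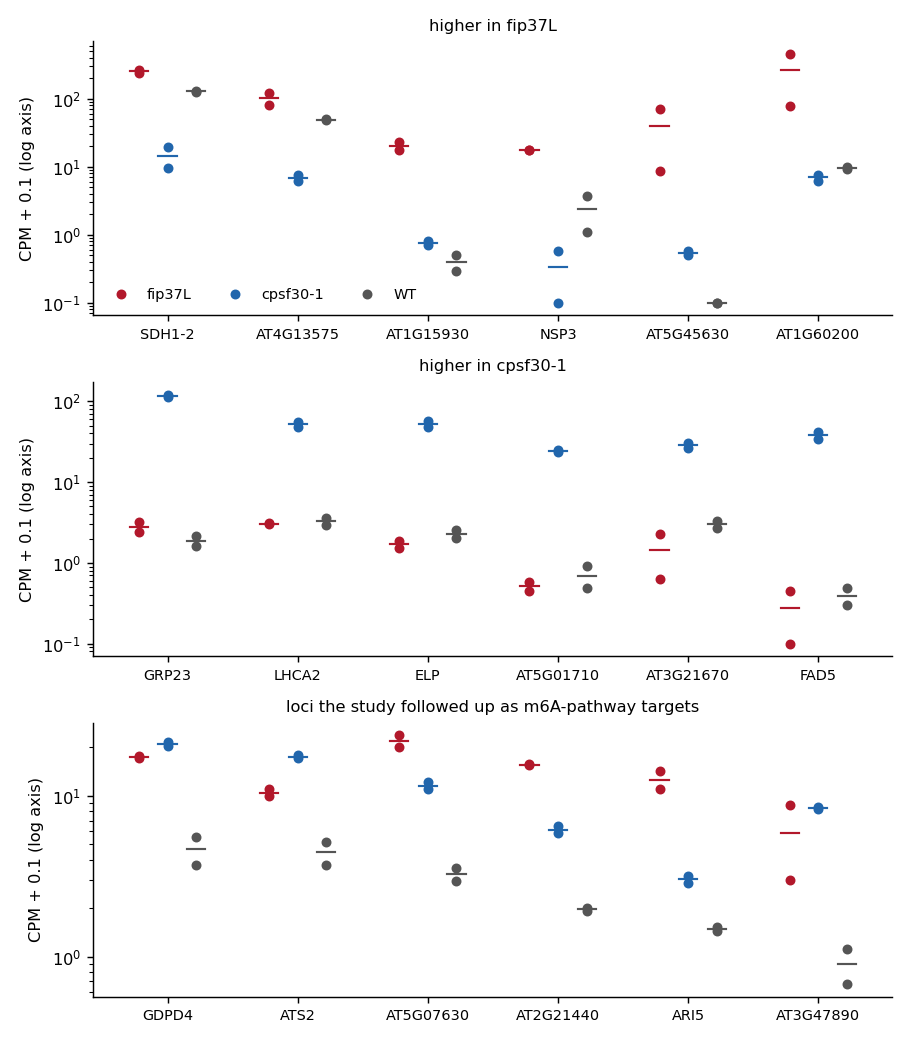
Scaled reads (CPM + 0.1, log axis) in each library of *fip37L* (red), *cpsf30-1* (blue) and WT (grey) for 18 named windows, with a bar at the mean of the 2 libraries of a group. In the middle panel every *cpsf30-1* point lies above every *fip37L* and WT point, and in the lower panel the mutants lie above WT.

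At the loci the study followed up because they are read through in mutants of NERD, a protein that restricts chimeric transcripts, 2 windows were called and 7 were not. *GDPD4* (AT1G71340), a phosphodiesterase gene upstream of AT1G71330, had 100 and 71 reads in *fip37L* libraries and 91 and 102 reads in *cpsf30-1* libraries, against 19 and 27 reads in WT libraries. Its mutants were at 17.4 ± 0.41 CPM in *fip37L* and 20.8 ± 0.77 CPM in *cpsf30-1*, and the difference of −0.26 had a 95% interval from −0.69 to 0.17. *ATS2* (AT4G30580), an acyltransferase gene, had 56 and 45 reads in *fip37L* libraries and 73 and 89 reads in *cpsf30-1* libraries, against 19 and 25 reads in WT libraries. Its difference of −0.75 (edgeR adjusted p = 0.019) was less than 2-fold and was not called.

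Of these loci, 2 were higher in *fip37L*. *ARI5* (AT1G05890), a RING-type ubiquitin ligase gene, had 80 and 45 reads in *fip37L* libraries and 13 and 14 reads in *cpsf30-1* libraries, against 7 and 7 reads in WT libraries, with a log2 difference of 2.10 ± 0.26 (edgeR adjusted p = 0.00052). In a fit of all transcript models, its second model gave a difference of 0.87, which is under 2-fold. AT2G21440, an RNA-binding protein gene, had 87 and 65 reads in *fip37L* libraries and 27 and 29 reads in *cpsf30-1* libraries, against 10 and 9 reads in WT libraries, with a difference of 1.36 ± 0.25. AT5G07630, a lipid transporter gene, had 113 and 98 reads in *fip37L* libraries and 51 and 55 reads in *cpsf30-1* libraries, against 15 and 17 reads in WT libraries. Its difference of 0.92 was under 2-fold, and passed the call without replicate 1 of *fip37L* (1.06).

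The remaining 4 such loci did not pass the call. AT3G47890 had 49 and 12 reads in *fip37L* libraries and 35 and 42 reads in *cpsf30-1* libraries, against 3 and 5 reads in WT libraries, and its difference was −0.46 with all libraries, −1.50, higher in *cpsf30-1*, without replicate 1 of *fip37L* (edgeR adjusted p = 0.026) and 0.08 without replicate 2 of *fip37L*. *HDS* had 51 and 19 reads in *fip37L* libraries and 19 and 22 reads in *cpsf30-1* libraries, against 0 and 3 reads in WT libraries. *PUP11* had 12 and 6 reads in *fip37L* libraries and 22 and 11 reads in *cpsf30-1* libraries, against 2 and 3 reads in WT libraries. *BGLU42* had 14 and 20 reads in *fip37L* libraries and 9 and 10 reads in *cpsf30-1* libraries, against 10 and 10 reads in WT libraries. The 95% intervals of the difference were from −0.32 to 1.63 for *HDS*, from −2.18 to 0.23 for *PUP11* and from −0.14 to 1.70 for *BGLU42*, so that a 2-fold difference is not bounded away in these 3 windows.

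The wider lists of such loci from the *nerd-1* mutant, which were made on other libraries, were read in the same way. Of 37 upstream genes of chimeric loci, 35 windows were tested. Of these, 4 were higher in *fip37L* (11.4%) and 2 were higher in *cpsf30-1* (5.71%), against 7.70% and 10.2% of all tested windows. Their median difference was 0.15, with median differences from WT of 1.40 in *fip37L* and 1.68 in *cpsf30-1*. The 4 were *ARI5*, AT2G21440, AT3G09410 and AT2G11270, and the 2 were AT4G19830 and *YSL5*, an iron-nicotianamine transporter family gene with 58 and 35 reads in *fip37L* libraries and 114 and 136 reads in *cpsf30-1* libraries. Of 17 loci with extended transcripts, 14 were tested. *UBP13*, a ubiquitin protease gene, was higher in *fip37L* (7.14%) and 3 were higher in *cpsf30-1* (21.4%). Their median difference was −0.20, with medians from WT of 1.76 in *fip37L* and 1.89 in *cpsf30-1*.

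The study also names loci at which CPSF30 acts without FIP37. These were chosen on the present samples, so their direction is not independent evidence. Of 5 such genes, 4 were higher in *cpsf30-1*, namely AT5G01710 and AT3G21670 described above, *IPK2a*, an inositol phosphate kinase gene, and AT5G20190, a TPR-protein gene. *IPK2a* had 3 and 4 reads in *fip37L* libraries and 74 and 65 reads in *cpsf30-1* libraries, against 2 and 3 reads in WT libraries. AT5G20190 had 6 and 3 reads in *fip37L* libraries and 63 and 48 reads in *cpsf30-1* libraries, against 6 and 6 reads in WT libraries. *TOC159*, which encodes a receptor of chloroplast protein import, was not called and was above WT in both mutants, with 58 and 55 reads in *fip37L* libraries and 100 and 101 reads in *cpsf30-1* libraries, against 19 and 14 reads in WT libraries. Its difference of −0.90 passed the call without replicate 2 of *fip37L* (−1.07) or without replicate 2 of *cpsf30-1* (edgeR adjusted p = 0.036).

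The window of AT2G24330, which covers AT2G24320 of the same set, had 10 and 2 reads in *fip37L* libraries and 19 and 30 reads in *cpsf30-1* libraries, against 9 and 9 reads in WT libraries. The log2 difference of −2.10 was −3.36 without replicate 1 of *fip37L*, and its call was lost without replicate 2 of *cpsf30-1* (edgeR adjusted p = 0.076). The control windows of *PAB4* and *PHYB* held too few reads to test. *PAB4* had 0 and 0 reads in *fip37L* libraries and 2 and 1 reads in *cpsf30-1* libraries, and *PHYB* had 3 and 1 reads in *fip37L* libraries and 5 and 11 reads in *cpsf30-1* libraries.

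Among genes of the m6A pathway and of polyadenylation, called windows are given beside 17.9% called in either direction over all tested windows. Of 5 genes of the m6A writer complex 4 were tested, and only *FIP37* was called. Of 11 genes for YTH-domain readers of m6A 7 were tested. *ECT7* was higher in *fip37L*, with 514 and 304 reads in *fip37L* libraries and 108 and 115 reads in *cpsf30-1* libraries, against 221 and 208 reads in WT libraries. *ECT11* was higher in *cpsf30-1*, with 140 and 92 reads in *fip37L* libraries and 293 and 366 reads in *cpsf30-1* libraries, against 171 and 165 reads in WT libraries. The windows of both overlap other annotated genes. None of the 2 genes for m6A erasers held enough reads.

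Among 17 tested genes of the cleavage and polyadenylation machinery, 3 were higher in *fip37L* and 1 was higher in *cpsf30-1*. The 3 were *CPSF160*, the subunit beside CPSF30 in the same factor, the nuclear poly(A)-binding protein gene *PABN1* and its relative AT5G10350. *CPSF160* had 11 and 14 reads in *fip37L* libraries and 3 and 5 reads in *cpsf30-1* libraries, against 14 and 11 reads in WT libraries. The other was AT5G60940, a WD40-repeat gene of the cleavage stimulation factor, with 7 and 7 reads in *fip37L* libraries and 35 and 42 reads in *cpsf30-1* libraries, against 6 and 7 reads in WT libraries. The median difference over the 17 windows was 0.13, near that of all tested windows.

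Photosystem and light-harvesting genes carry out the capture of light energy in the chloroplast. Of 82 tested windows of genes whose annotation names a photosystem or light harvesting, 1 (1.22%) was higher in *fip37L* and 22 (26.8%) were higher in *cpsf30-1*. Over all tested windows the shares were 7.70% and 10.2%. The median difference was −0.46 over the 82 windows, against 0.01 over all tested windows. *LHCA1* and *LHCA3*, antenna genes of photosystem I, were among the 22, as were *PSAF*, *PSAH2*, *PSAD-1*, *PSAD-2* and *PSAK* for its subunits and *LHCB5* and *LHCB2.3* for antenna proteins of photosystem II. *PSAF* had 101 and 75 reads in *fip37L* libraries and 328 and 369 reads in *cpsf30-1* libraries, against 80 and 84 reads in WT libraries. The list also holds genes that are not photosystem subunits, and *HCF136*, *HCF107*, *LPA2*, *LTO1*, *CEST*, *PRPL11* and *ATMAK3* were such members among the 22.

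Calls in favour of *cpsf30-1* at these genes were 8 of 21 free windows, 7 of 12 that overlap a same-strand gene only, 7 of 45 that overlap an opposite-strand gene only and 0 of 4 with genes on both strands. In this order, the shares over all tested windows of the class were 27.3%, 10%, 6.47% and 7.17%. Free windows, the class with the highest share, were 21 of the 82, against 1633 of all 12583 tested, and the share of the list was not adjusted for this. The median difference from WT over the 82 windows was 0.06 in *fip37L* and 0.33 in *cpsf30-1*. *PSAG* was the exception, with 109 and 71 reads in *fip37L* libraries and 6 and 6 reads in *cpsf30-1* libraries, against 73 and 61 reads in WT libraries. Windows of other genes that overlap a photosystem gene gave 4 of 73 (5.48%) higher in *fip37L* and 1 (1.37%) higher in *cpsf30-1*.

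Heat shock genes encode chaperones and small heat shock proteins, and some lie inside the window of another gene. Of 37 such tested windows, 12 (32.4%) were higher in *fip37L* and 1 (2.7%) was higher in *cpsf30-1*, with a median difference of 0.53 and median differences from WT of 0.68 in *fip37L* and 0.09 in *cpsf30-1*. AT3G09430 faces the HSP70 gene AT3G09440 and had 2145 and 1487 reads in *fip37L* libraries and 577 and 683 reads in *cpsf30-1* libraries, against 882 and 984 reads in WT libraries. *FYD* faces the HSP70 gene AT3G12580 and had 1049 and 358 reads in *fip37L* libraries and 185 and 159 reads in *cpsf30-1* libraries, against 158 and 151 reads in WT libraries. Over all tested windows, 7.70% were higher in *fip37L* and 10.2% in *cpsf30-1*. The 44 windows of heat shock genes themselves gave 7 (15.9%) higher in *fip37L* and 8 (18.2%) higher in *cpsf30-1*. Among these, *BIP1*, a chaperone gene of the endoplasmic reticulum, had 8 and 8 reads in *fip37L* libraries and 36 and 35 reads in *cpsf30-1* libraries, against 1 and 2 reads in WT libraries.

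Histone genes, found by the word in their annotation, gave 3 of 38 windows higher in *fip37L* and 9 (23.7%) higher in *cpsf30-1*, and 2 of these 9, AT1G21920 and AT3G07565, are annotated as histone-modifying proteins. AT5G10390, an H3 gene, was higher in *fip37L*, with 159 and 96 reads in *fip37L* libraries and 30 and 45 reads in *cpsf30-1* libraries, against 52 and 67 reads in WT libraries. Over all tested windows, 7.70% were higher in *fip37L* and 10.2% in *cpsf30-1*. In this order, ribosomal protein genes gave 15 (7.46%) and 17 (8.46%) of 201, and disease resistance genes of the NLR type 4 (4.88%) and 7 (8.54%) of 82. WRKY and ERF transcription factor genes gave 3 (6.98%) and 6 (14%) of 43, and cytochrome P450 genes 8 (9.41%) and 14 (16.5%) of 85. Transposable element genes, a list that also holds the histone gene *HTA9*, gave 1 (4.35%) and 2 (8.7%) of 23. Where WRKY or ERF genes lay in the window of another gene, 7 of 30 (23.3%) were higher in *fip37L* and 5 (16.7%) were higher in *cpsf30-1*.

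**Figure D5:**
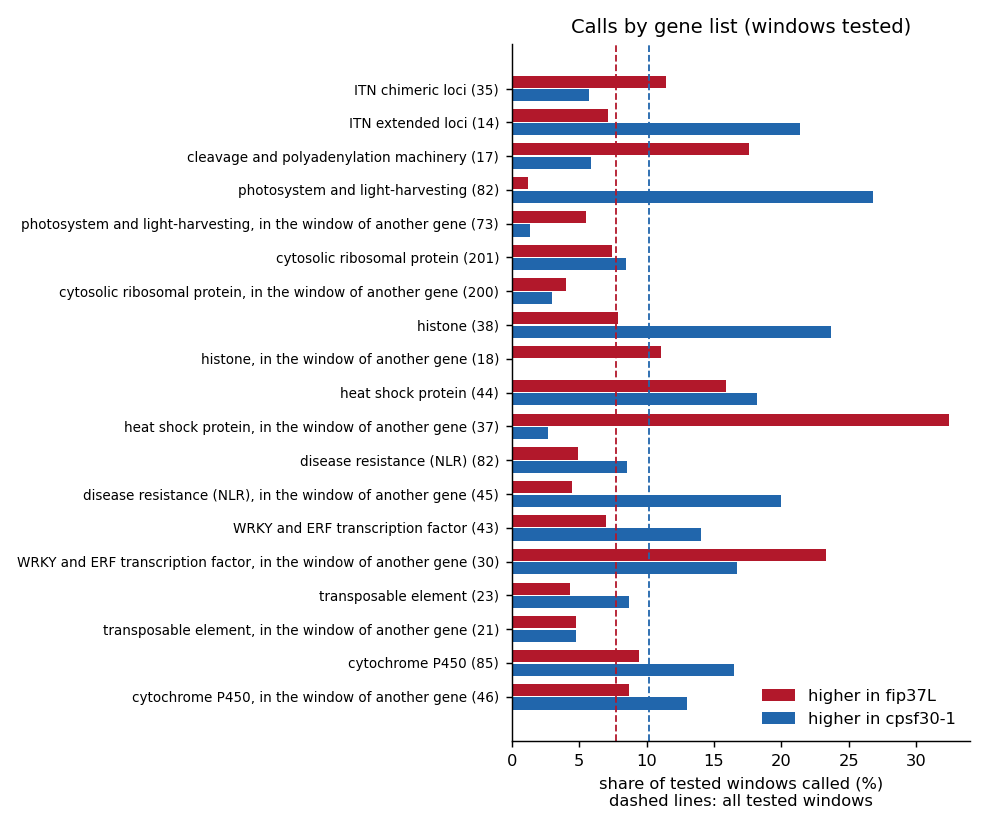
Share of tested windows, in percent, called higher in *fip37L* (red) or in *cpsf30-1* (blue) for each gene list with at least 14 tested windows, with the number tested in brackets. Dashed lines give the shares over all tested windows, 7.70% and 10.2%. Photosystem genes reached 26.8% in favour of *cpsf30-1* and windows that hold a heat shock gene reached 32.4% in favour of *fip37L*.

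Convergent genes, each of which lies in the window of the other, gave 2981 pairs with both windows tested. Both windows were higher in *fip37L* in 49 pairs and higher in *cpsf30-1* in 52. Only 1 window was called in 361 pairs in favour of *fip37L* and in 239 in favour of *cpsf30-1*, and neither in 2267. Of all tested windows with opposite-strand genes only, 7.79% were higher in *fip37L* and 6.47% in *cpsf30-1*. In the remaining 13 pairs the windows were called in opposite directions, and this number was not set against that expected from such shares. One such pair is *PSAH2*, a photosystem I subunit gene, and *ROPGEF11*. The window of *ROPGEF11* had 35333 and 26883 reads in *fip37L* libraries and 13459 and 15563 reads in *cpsf30-1* libraries, against 22785 and 20263 reads in WT libraries. The window of *PSAH2* had 304 and 233 reads in *fip37L* libraries and 1350 and 1523 reads in *cpsf30-1* libraries, against 183 and 230 reads in WT libraries.

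The pair of *WRKY33* and AT2G38480 had the same form. The window of AT2G38480, which faces *WRKY33*, had 2339 and 509 reads in *fip37L* libraries and 76 and 200 reads in *cpsf30-1* libraries and 1097 and 1194 reads in *cpsf30-3* libraries, against 96 and 117 reads in WT libraries. The window of *WRKY33* had 94 and 64 reads in *fip37L* libraries and 140 and 162 reads in *cpsf30-1* libraries, against 122 and 117 reads in WT libraries, with a log2 difference of −1.02 that was under 2-fold without replicate 2 of *fip37L* (−0.95). *WRKY53* and *3xHMG-box2* formed another of the 13 pairs. The window of *WRKY53* had 271 and 210 reads in *fip37L* libraries and 443 and 528 reads in *cpsf30-1* libraries, against 698 and 697 reads in WT libraries. Both mutants were thus below WT there, with log2 differences from WT of −1.48 in *fip37L* and −0.39 in *cpsf30-1*.

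Counts of 2 sequence elements were made before the annotated 3′ ends. AATAAA, searched on the strand of the gene in the last 50 bases, was present before 8.43% of 961 placed windows higher in *fip37L*, 10.5% of 1271 higher in *cpsf30-1* and 9.54% of 12481 tested. Over all 30622 placed genes it was present in 8.66%. TGTA in the last 100 bases was present in 53.8% of the windows higher in *fip37L*, 55.9% of those higher in *cpsf30-1* and 54.7% of those tested, against 50.4% of all placed genes. Among free windows, TGTA was present in 43.8% of 137 higher in *fip37L*, 55.2% of 446 higher in *cpsf30-1* and 52.4% of 1633 tested. In the same order, the shares were 45.9%, 56.6% and 53.9% with same-strand genes only. With opposite-strand genes only they were 57.5%, 57% and 55.4%. These shares are a description with no test, and they depend on the annotated 3′ ends.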

How the data were processed

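Per the labels, polyadenylated RNA was prepared with a stranded kit and sequenced in single-end reads. The authors removed organellar and ribosomal RNA reads with Bowtie2 2.3.4, mapped the rest to TAIR10 with TopHat2 2.0.7 and counted reads in 500-bp windows downstream of annotated genes with BEDTools. The submitters' processing notes also name Cufflinks 2.2.1 and Cuffdiff. The deposited values are raw counts per transcript model.

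From these counts, the lowest-numbered model of each of 31109 genes was kept. Windows were placed on TAIR10.1 from its annotation, and 487 genes were not placed. All 8 libraries entered 1 edgeR 4.0.16 quasi-likelihood fit (R 4.3.3, TMM, filterByExpr), with 4 residual degrees of freedom. Adjusted p-values cover all 12583 tested windows, and the test was two-sided. The computations were checked on simulated data. The SE is the log2 difference over the root of the F statistic. A floor of 3 counts is 0.530 to 0.722 CPM. Floors and counting intervals cover counting error only.

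Named windows are the mutated genes, the loci the study followed up and called list members. They include the largest differences per class and direction, where the higher mutant averaged 20 counts or more and the libraries did not overlap. They also include, among windows with WT between the mutants, those with WT furthest from both. *PSAH2*, *WRKY33* and the photosystem genes named without values were picked from list members or pairs after their values were seen. The members and lists were chosen with earlier results of these data known. Counts over gene bodies were not analysed, so that windows downstream of differentially expressed genes stayed in and tissue markers were not checked. Alternatives used DESeq2 1.42.0 and limma 3.58.1.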

Additional observations from a re-analysis of the deposited data

Results flagged for a closer look

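Both WT libraries lay between those of the mutants in 425 of 969 windows called higher in *fip37L* and 335 of 1278 called higher in *cpsf30-1*. No share over all tested windows was computed, so these counts are a description only. The following 6 windows ranked first among them in their direction. They were ranked by the smaller of the distances from WT to either mutant, on the scale log2(mean CPM + 1). In favour of *fip37L*, *NSP3* had a log2 difference of 6.18, AT1G53542 of 4.25 and *ASY1* (AT1G67370), a gene of meiotic chromosome pairing, of 3.13. The window of AT1G53542 had 32 and 32 reads in *fip37L* libraries and 2 and 1 reads in *cpsf30-1* libraries, against 13 and 9 reads in WT libraries, a ratio of 20.2 with a 95% counting interval from 6.6 to 100, and its log2 difference was 4.89 without replicate 1 of *cpsf30-1*. That of *ASY1*, which faces AT1G67365, had 161 and 119 reads in *fip37L* libraries and 13 and 17 reads in *cpsf30-1* libraries, against 47 and 54 reads in WT libraries.

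In favour of *cpsf30-1*, *LPA2*, a photosystem II assembly gene, had a log2 difference of −4.70, the lipid-transfer protein gene AT5G46900 of −3.25 and the lectin gene AT1G52060 of −3.15. *LPA2* had 3 and 1 reads in *fip37L* libraries and 56 and 47 reads in *cpsf30-1* libraries, against 15 and 25 reads in WT libraries, and its value was −5.38 without replicate 1 of *fip37L*. AT5G46900 had 39 and 0 reads in *fip37L* libraries and 180 and 155 reads in *cpsf30-1* libraries, against 62 and 45 reads in WT libraries, and its value was −10.42 without replicate 1 and −2.38 without replicate 2. Its call was lost with DESeq2 (adjusted p = 0.11), and neither mutant passed the edgeR test against WT there (adjusted p = 0.20 in *fip37L* and 0.064 in *cpsf30-1*). AT1G52060 had 25 and 7 reads in *fip37L* libraries and 142 and 120 reads in *cpsf30-1* libraries, against 59 and 37 reads in WT libraries, and its value was −4.04 without replicate 1 of *fip37L*.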

How the results depend on the processing

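No alternative reversed a called difference among the windows followed singly, and of their values under all alternatives 690 stayed on their side of the call, 24 lost it and 9 gained it. With DESeq2, 561 windows were higher in *fip37L* and 791 in *cpsf30-1*, with 59 and 261 among free windows and 323 and 292 among windows with opposite-strand genes. With limma voom and quality weights by group, 818 windows were higher in *fip37L* and 924 in *cpsf30-1*. Among free windows these were 106 and 310, and 133 of the 141 named windows were called. Without a filter, 267 and 714 free windows were called. A mean of at least 20 counts over the 4 libraries gave 715 windows higher in *cpsf30-1*, 68 and 184 free windows and 290 opposite-strand windows higher in *cpsf30-1*. Adjusted p alone gave 2033 and 2229, with 1271 and 1097 opposite-strand windows. A test against 2-fold (glmTreat) gave 193 and 426, with 23 and 173 free and 104 and 122 opposite-strand windows, and called 82 of the 141 named windows. Free windows alone gave 219 and 291, 29 named windows and AATAAA before 11.9% of those higher in *fip37L*. Windows with no opposite-strand gene gave 422 and 694, 66 named windows and AATAAA before 10.7%. Chosen after seeing the data, a WT mean of at least 20 counts left 636 windows higher in *fip37L* and 450 in *cpsf30-1*, with 56 and 94 free windows and 213 opposite-strand windows higher in *cpsf30-1*. The causes were not tested, beyond the fewer windows that some settings admit.

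Leaving out 1 library gave from 616 to 1018 windows higher in *fip37L* and from 818 to 1198 higher in *cpsf30-1*. Free windows ranged from 68 to 169 and from 273 to 400, opposite-strand windows from 349 to 564 and from 282 to 434, and named windows from 114 to 127. Where 1 library of a mutant was left, it was assumed to vary like the other groups. With the replicate block, 934 windows were higher in *fip37L* and 1244 in *cpsf30-1*, of which 916 and 1221 were shared with the calls without it. Deviations of same-numbered libraries correlated at −0.0499, so the numbers do not pair the samples. With 2 libraries a group, 4523 windows were left undecided.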

Other observations

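In 3 genes, windows of different transcript models were called in opposite directions in the fit of all models. AT2G37390 had 71 and 65 reads in *fip37L* libraries and 20 and 15 reads in *cpsf30-1* libraries after its first model, and 2 and 1 reads in *fip37L* libraries and 13 and 16 reads in *cpsf30-1* libraries after its second. AT2G27385 had 42 and 25 reads in *fip37L* libraries and 13 and 12 reads in *cpsf30-1* libraries after its first model, and 9 and 1 reads in *fip37L* libraries and 82 and 28 reads in *cpsf30-1* libraries after its second. In AT2G20790 the window of the first model was higher in *cpsf30-1* and that of the third model was higher in *fip37L*, with log2 differences of −1.67 and 1.01. These genes were picked after their values were seen.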
